A study of Mus musculus with 24 samples.

Results

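The genes Th, Ddc, Slc6a3, Slc18a2, Aldh1a1, Slc10a4, Ret and Sncg were followed through the day in the ventral tegmental area (VTA) of the mouse, the midbrain nucleus whose dopamine neurons project to the nucleus accumbens and prefrontal cortex. They were chosen by name for their part in making, packaging and taking back dopamine, or as genes that dopamine neurons express strongly, and make up 8 of the 19938 genes that have a probe set of their own on the array. Each of the 8 had exactly 1 such probe set, which stands for the gene throughout. Slc10a4 was also covered by 1 further probe set that is shared with another gene and was not used. The samples were punches from frozen brain slices of male wild-type C57BL/6N mice aged 10 to 12 weeks, which had chow and water at all times and a day of 12 h light and 12 h dark. Groups of 4 mice were killed at Zeitgeber time (ZT) 0, 4, 8, 12, 16 and 20, where ZT0 is lights on and ZT12 lights off, and RNA of each mouse was hybridized to 1 array, giving 24 arrays. No mouse was treated or mutant, so time of day and the difference between individual mice are the only comparisons that the design holds.

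Dopamine is made from tyrosine in a pair of steps. Tyrosine hydroxylase, the product of Th, adds a hydroxyl group and is the rate-limiting enzyme, and the aromatic amino acid decarboxylase encoded by Ddc turns the resulting L-DOPA into dopamine. The vesicular monoamine transporter Slc18a2 (VMAT2) loads dopamine into synaptic vesicles, and the dopamine transporter Slc6a3 (DAT) returns released dopamine to the cell. Of the other genes, Aldh1a1 codes for an aldehyde dehydrogenase found in a subset of midbrain dopamine neurons, Slc10a4 for a protein of synaptic vesicles in monoaminergic and cholinergic neurons, Ret for the receptor tyrosine kinase through which GDNF acts, and Sncg for gamma-synuclein. A tissue punch also holds other cells, and not all of these transcripts are limited to dopamine neurons, as Slc10a4 shows. Fewer dopamine cells, less RNA per dopamine cell and a part of other cells therefore cannot be told apart in any result that follows.

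The genes lie on different chromosomes except for Slc18a2 and Aldh1a1, which are both on chromosome 19 (GRCm38.p6). Promoter windows of RefSeq, which run from 250 bases before to 50 bases after each transcription start, were at hand for 7 of the 8 genes, 9 windows in all, and were searched on both strands for 4 short motifs. The cAMP response element (CRE, TGACGTCA) was present in the windows of Th and Slc18a2, the NBRE bound by receptors of the Nr4a family (AAAGGTCA) in 1 of the 2 windows of Ddc, and the E-box bound by clock proteins (CACGTG) in that of Slc6a3. No window held the PITX site TAATCC, and the windows of Aldh1a1, Slc10a4 and Sncg held none of the 4 motifs. Among all 32851 promoter windows of the same length, 1.79% held the CRE, 1.51% the NBRE, 7.06% the PITX site and 7.15% the E-box. The 4 promoters with a match are shown because their genes are the enzymes and transporters on which the results below turn. Capitals mark the match, which describes the letters only and does not show that a factor binds there. The stretches are chr7:142899996-142900245 on the minus strand for Th, chr11:11898145-11898394 on the minus strand for Ddc, chr13:73536497-73536746 on the plus strand for Slc6a3 and chr19:59260632-59260881 on the plus strand for Slc18a2, all 250 bases long and written 5′ to 3′. They end at the base before the start, other than that of Slc18a2, which runs 4 bases past it so that the CRE is whole.
Th: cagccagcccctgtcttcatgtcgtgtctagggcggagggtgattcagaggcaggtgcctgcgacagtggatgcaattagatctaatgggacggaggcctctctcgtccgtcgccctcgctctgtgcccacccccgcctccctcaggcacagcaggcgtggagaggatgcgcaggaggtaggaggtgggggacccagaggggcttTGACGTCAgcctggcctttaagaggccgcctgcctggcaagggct
Ddc: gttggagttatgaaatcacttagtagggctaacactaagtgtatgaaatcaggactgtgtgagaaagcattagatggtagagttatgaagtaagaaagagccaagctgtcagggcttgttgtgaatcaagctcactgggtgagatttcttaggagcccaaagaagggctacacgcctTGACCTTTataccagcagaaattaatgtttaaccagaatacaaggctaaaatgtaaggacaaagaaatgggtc
Slc6a3: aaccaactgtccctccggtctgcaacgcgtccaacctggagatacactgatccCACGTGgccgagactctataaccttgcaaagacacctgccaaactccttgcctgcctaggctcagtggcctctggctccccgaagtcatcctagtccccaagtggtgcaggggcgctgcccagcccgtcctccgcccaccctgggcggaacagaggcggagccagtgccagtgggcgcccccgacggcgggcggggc
Slc18a2: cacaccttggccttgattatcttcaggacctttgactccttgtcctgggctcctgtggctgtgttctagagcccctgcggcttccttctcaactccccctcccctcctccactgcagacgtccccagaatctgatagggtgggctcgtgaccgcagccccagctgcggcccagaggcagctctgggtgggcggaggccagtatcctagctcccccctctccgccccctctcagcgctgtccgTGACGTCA
The CRE begins 45 bases before the start of Th and 4 bases before that of Slc18a2. In Ddc the NBRE is read on the opposite strand, so the printed strand shows TGACCTTT.

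Values are log2 levels from the authors' RMA normalization, so a difference of 1 is a 2-fold change. Array medians over the 23410 probe sets with a gene, called transcripts from here on, ranged from 6.71 to 6.79. All 8 genes were above those medians in every mouse, and markers of dopamine neurons were therefore detected in each punch. Probe sets differ in how strongly they bind, so levels of different genes were not compared. The array of ZT0 replicate 4 stood apart from the rest, with a median correlation of 0.97 with the other arrays against 0.988 to 0.993 for the other 23. Values without it are given for some of the results on the daily course, on early light against early dark and on pairs of genes. The SDs within time points, the ranks by likeness to Th and the correlations with marker lists are given with all arrays only. The number of arrays limits the precision, and the labels do not say whether a replicate number links mice of different time points.

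Th showed no daily rhythm that could be told from the spread between mice. In the light phase its log2 level was 7.51, 7.90, 7.90 and 7.55 in the mice at ZT0, 7.51, 7.61, 7.62 and 8.06 at ZT4, and 7.86, 7.92, 7.84 and 7.68 at ZT8. In the dark phase it was 7.94, 7.52, 7.76 and 7.43 at ZT12, 7.76, 7.50, 7.92 and 8.0 at ZT16, and 7.88, 8.21, 7.77 and 7.59 at ZT20. The mice of every time point overlapped with those of every other, and the highest mouse (ZT20 replicate 2) had 1.72-fold the level of the lowest (ZT12 replicate 4). The peak of a 24-h cosine curve fitted with limma was 1.06-fold its trough (adjusted p = 0.937). With each array left out in turn, the fold of Th ran from 1.02 to 1.10. The paper reports rhythmic Th mRNA by qPCR in the VTA of wild-type mice of another substrain. Its VTA tissue was dissected by laser rather than punched and was taken at other time points, so the assay, the tissue, the times and the mice differ.

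Slc6a3 ranged more widely between mice than Th, again with overlap between all time points. Its level in the light phase was 8.01, 8.40, 8.70 and 8.09 at ZT0, 8.12, 8.32, 8.52 and 8.94 at ZT4, and 8.62, 8.69, 8.54 and 8.21 at ZT8. In the dark phase it was 8.99, 8.02, 8.46 and 8.19 at ZT12, 8.46, 8.09, 8.62 and 8.73 at ZT16, and 8.53, 9.18, 8.62 and 8.40 at ZT20. The same mouse, ZT20 replicate 2, was highest for both genes. The fold between the highest and the lowest mouse was 2.25 for Slc6a3, whereas the fitted daily curve spanned only 1.07-fold (limma, adjusted p = 0.957). With each array left out in turn, that curve spanned 1.03-fold to 1.14-fold.

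Ddc was likewise spread within time points. Its level was 8.24, 8.37, 8.53 and 7.95 at ZT0, 8.32, 8.35, 8.48 and 8.65 at ZT4, and 8.43, 8.74, 8.42 and 8.53 at ZT8. In the dark phase it was 8.68, 8.35, 8.38 and 8.32 at ZT12, 8.26, 8.24, 8.49 and 8.38 at ZT16, and 8.55, 8.71, 8.54 and 8.31 at ZT20. The lowest value came from the array that stands apart, ZT0 replicate 4. The daily curve of Ddc had a fold of 1.07 (limma, adjusted p = 0.897), and of 1.05 without that array.

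The vesicular transporter Slc18a2 had time point means between 7.38 ± 0.21 at ZT12 and 7.49 ± 0.09 at ZT4 (SD, n = 4 each). Ret had means between 7.65 ± 0.13 at ZT4 and 7.76 ± 0.21 at ZT20, and its daily fold of 1.03 was the smallest among the 8 genes. Slc10a4 had means between 8.27 ± 0.16 at ZT20 and 8.46 ± 0.21 at ZT12. In all 3 genes the means differed by less than the SD of the mice at the most variable time point.

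Aldh1a1 and Sncg had the fitted curves with the smallest p among the 8, and neither passed. Aldh1a1 had a peak-to-trough fold of 1.14 with a fitted peak at ZT9.07 ± 1.93 h (SE, limma, adjusted p = 0.685). At ZT0 it was at 9.88, 9.78 and 9.87 in replicates 1 to 3 and at 9.26 in replicate 4, and at ZT20 it was at 9.81, 9.79 and 9.85 in replicates 1 to 3 and at 9.37 in replicate 4. A single low mouse thus set the mean of each of these time points, and without ZT0 replicate 4 the fold was 1.10. Sncg was at 8.43, 8.40, 8.45 and 8.48 in the mice at ZT8, against 8.38, 8.22, 8.14 and 8.34 at ZT12 and 8.23, 8.34, 8.37 and 8.36 at ZT16, so that all mice at ZT8 were above those of both early dark time points. This separation was picked out after the values were seen and was not tested. The share of all transcripts that separate in this way was not counted. Sncg had a fold of 1.09 with a fitted peak at ZT1.35 ± 1.90 h (SE, limma, adjusted p = 0.681), and without ZT0 replicate 4 a fold of 1.07.

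**Figure D1:**
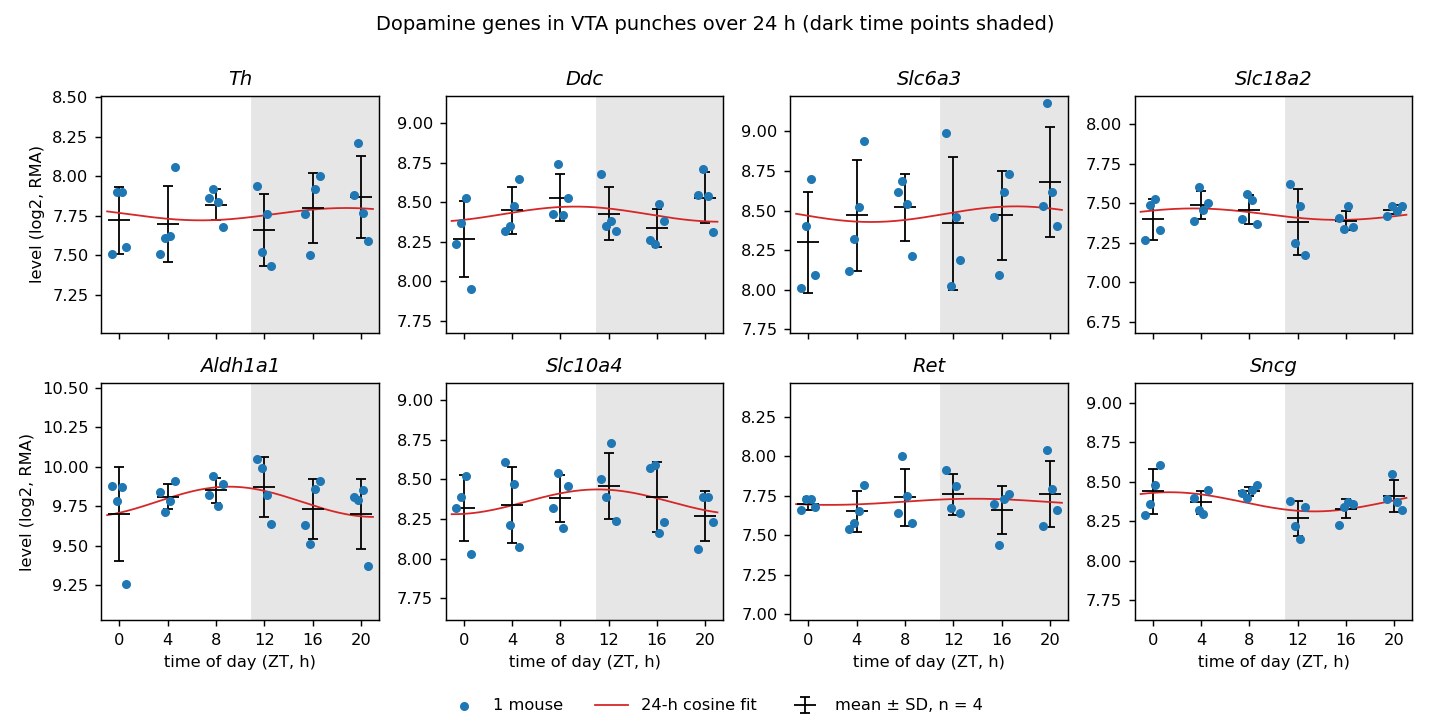
Log2 level (RMA) of the 8 genes against Zeitgeber time in h; points are single mice, black bars the mean ± SD of 4 mice per time point, red lines the fitted 24-h cosine curves, and time points in the dark are shaded. Mice of different time points overlap in every panel, except those of Sncg at ZT8 with ZT12 and ZT16, a separation seen afterwards and not tested. The curves are flat beside the spread of the mice, with peak-to-trough folds from 1.03 (Ret) to 1.14 (Aldh1a1).

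Counted over the group, 0 of the 8 genes were called rhythmic by limma's moderated F-test at an adjusted p under 0.05, and 0 passed at an unadjusted p under 0.05. Among all transcripts 0.0299% were called after adjustment (7 of 23410), a share at which 8 genes would give no call, and 8.91% passed without adjustment. The peak-to-trough fold exceeded the median of all transcripts, 1.07, in 3 of the 8 genes. The share of variance between time points was 12.8% for Th, 13.9% for Slc6a3, 28.8% for Ddc and 37.5% for Sncg, where the median transcript had 19.8%. Means of 4 mice also differ by chance, so such a share is above 0 without any effect of time. The p values do not show that the genes are flat, and small rhythms would not be detectable with 4 mice per time point.

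The study set the start of the rest phase against the start of the active phase, with other measures and at other time points. A similar comparison was made here for the dopamine genes, with the mice of ZT0 and ZT4 as early light and those of ZT12 and ZT16 as early dark (8 mice each). None of the 8 genes was called. Th had a median of 7.61 in early light (7.51 to 8.06) and of 7.76 in early dark (7.43 to 8.0), a difference of the fitted means of -0.02 (95% interval -0.22 to 0.18, limma, adjusted p = 0.958). For Slc6a3 the median was 8.36 in early light (8.01 to 8.94) and 8.46 in early dark (8.02 to 8.99), and the difference was -0.06 (-0.35 to 0.23, adjusted p = 0.921).

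The remaining genes did not pass either, and Sncg came closest. The other synthesis gene, Ddc, differed by -0.03 (-0.19 to 0.14), and the vesicular transporter Slc18a2 by 0.06 (-0.06 to 0.18). Aldh1a1 differed by -0.05 (-0.23 to 0.13), Slc10a4 by -0.10 (-0.29 to 0.09) and Ret by -0.03 (-0.18 to 0.11). The largest difference was that of Sncg, which had a mean of 8.40 in early light and 8.30 in early dark. Its 8 values ran from 8.29 to 8.61 in early light and from 8.14 to 8.38 in early dark, and the difference of 0.11 (0.00 to 0.21) had an unadjusted p of 0.0549 and an adjusted p of 0.507 (limma). Without ZT0 replicate 4, its highest mouse, the difference of Sncg was 0.08. Ddc and Aldh1a1 changed sign without that array, each to 0.03, and Th changed sign as well. With each array left out in turn, the difference of Th ran from -0.08 to 0.02 and that of Slc6a3 from -0.13 to 0.04. The estimates of these genes were thus small enough for 1 mouse to turn their direction. Over all transcripts, 0.0342% were called between early light and early dark (8 of 23410), 10.2% passed at an unadjusted p under 0.05 against 0 of the 8 dopamine genes, and the median difference was -0.01. Sncg did pass without adjustment in 3 other settings of the limma fit, the unmoderated test, arrays centred on their medians and transcripts above the median level, with adjusted p values of 0.468, 0.446 and 0.484. The level was higher in early light for 2 of the 8 genes and for 47.5% of all transcripts.

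**Figure D2:**
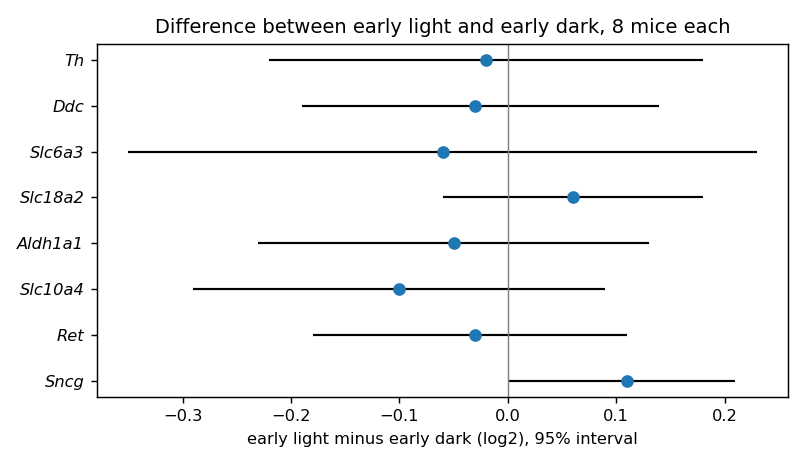
Difference in log2 level, early light (ZT0 and ZT4) minus early dark (ZT12 and ZT16), for each gene; points are the estimates from 8 mice each and lines their 95% intervals. All intervals reach 0, that of Slc6a3 is the widest (-0.35 to 0.23), and that of Sncg begins at 0.00.

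The larger part of the variation lay between mice killed at the same time. This is no trait of the 8 genes, since the median transcript had only 19.8% of its variance between time points. The SD within time points was 0.33 log2 units for Slc6a3, which exceeded that of 99.3% of transcripts. It was 0.22 for Th (above 92.9% of transcripts), 0.20 for Slc10a4 (90.1%), 0.19 for Aldh1a1 (87.7%), 0.17 for Ddc (79.0%) and 0.15 for Ret (65.1%). Slc18a2 and Sncg were less variable than most transcripts, with SDs of 0.11 (30.6%) and 0.09 (10.1%). The median transcript had 0.13, and 6 of the 8 genes were above it. So the synthesis genes Th and Ddc and the transporter Slc6a3 had larger SDs than the vesicular transporter Slc18a2. These differences in SD were not tested. Probe sets differ in how strongly they bind, which can also change the SD.

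Mice that were high for Th were high for Slc6a3. To set time of day aside, the mean of its time point was subtracted from each value. The deviation of Th was 0.36 in ZT4 replicate 4, 0.35 in ZT20 replicate 2 and 0.28 in ZT12 replicate 1, and that of Slc6a3 in the same mice was 0.46, 0.50 and 0.57. At the low end, Th deviated by -0.29 in ZT16 replicate 2, -0.27 in ZT20 replicate 4 and -0.23 in ZT12 replicate 4, and Slc6a3 by -0.38, -0.28 and -0.22. In 22 of the 24 mice both genes were on the same side of their time point mean.

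Across the 24 mice, the deviations of Th and Slc6a3 correlated with r = 0.94, and with 0.94 also within the 12 mice of the light and within the 12 mice of the dark time points. On the values as deposited, Pearson's r was 0.91 and Spearman's rho 0.92, each with a permutation p of 1e-05, the smallest that 100000 resamples can give (two-sided). Permutation p values here and below are not adjusted over the 28 pairs, and the 24 mice were shuffled without regard to time point. Without the 2 mice farthest from the median of Th, r was 0.90, and without ZT0 replicate 4 the correlation of the deviations was 0.94. In a limma fit with time point as a factor, Slc6a3 changed by 1.41 log2 units per log2 unit of Th (SE 0.13, 95% interval 1.14 to 1.68, adjusted p = 1.85e-06 over all transcripts). The log2 ratio of Th to Slc6a3 varied less between mice, with an SD of 0.14 within time points, than did Th with 0.22 or Slc6a3 with 0.33.

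The relation to Th weakened in steps through the other genes. Ddc and Ret followed Th nearly as closely as each other, with r of 0.79 and 0.78 between deviations, and were on the same side as Th in 19 of 24 mice each. Pearson's r on the values as deposited was 0.71 for Ddc and 0.72 for Ret (unadjusted permutation p = 0.00011 for both, two-sided). Spearman's rho was 0.78 and 0.74 (unadjusted permutation p = 3e-05 and 0.00012). Without the 2 mice farthest from the median of Th, r was 0.67 for Ddc and 0.64 for Ret. Their slopes on Th were 0.61 (SE 0.12, adjusted p = 0.371) for Ddc and 0.54 (SE 0.12, adjusted p = 0.421) for Ret, so neither passed once all transcripts were taken into account.

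Slc18a2 and Aldh1a1 followed Th more loosely. The r between deviations was 0.60 for Slc18a2 and 0.57 for Aldh1a1, and the slopes on Th were 0.32 (SE 0.12) and 0.51 (SE 0.17), both with an adjusted p of 1.0. Aldh1a1 had r = 0.37 with Th in the light and 0.73 in the dark time points, a difference that was not tested. Sncg had r = 0.32 and a slope of 0.13 (SE 0.11), and its r was 0.50 without ZT0 replicate 4. Slc10a4 showed no relation, with r = -0.05, a slope of -0.04 (95% interval -0.46 to 0.37) and the same side as Th in 11 of 24 mice.

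**Figure D3:**
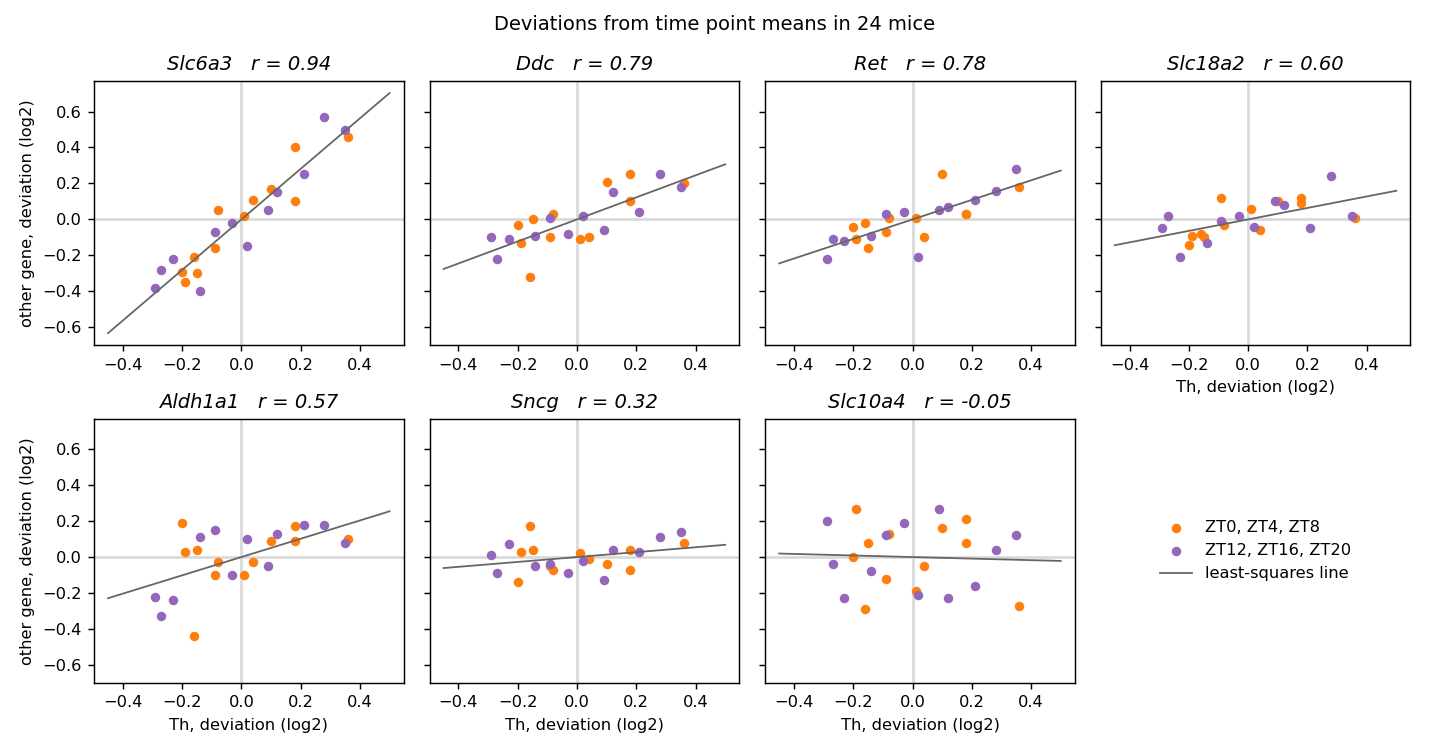
Deviation of each of the 7 other genes from its time point mean (log2, vertical) against that of Th (log2, horizontal) in 24 mice; orange points are mice of ZT0, ZT4 and ZT8, purple points those of ZT12, ZT16 and ZT20, and grey lines least-squares fits. The points of Slc6a3 lie along a line with r = 0.94, those of Ddc and Ret scatter more (0.79 and 0.78), and those of Slc10a4 form a cloud without slope (-0.05).

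Of the 7 genes other than Th, 1 (Slc6a3) was called as higher with Th at an adjusted p under 0.05, where 0.00854% of all transcripts were (2 of 23409). At an unadjusted p under 0.05, 5 of the 7 (Slc6a3, Ddc, Ret, Slc18a2 and Aldh1a1) were higher with Th, against 2.06% of transcripts. No gene of the 7 was lower with Th at either threshold. Over all transcripts 0% were called as lower (0 of 23409), and 1.94% were lower at an unadjusted p under 0.05. The median slope of the 7 genes was 0.51, and that of all transcripts 0.01.

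All 28 pairs of the 8 genes were examined, and they are described for the set of 6 genes without Slc10a4 and Sncg and for these genes apart. The mean r between deviations was 0.39 over the 28 pairs. Among the 15 pairs that leave out Slc10a4 and Sncg, r was above 0 in all 15, with a mean of 0.64 and a range from 0.25 (Slc18a2 with Aldh1a1) to 0.94. The 13 pairs with Slc10a4 or Sncg had a mean of 0.10, with a range from -0.36 (Slc10a4 with Sncg) to 0.36 (Slc6a3 with Sncg). The split into 6 and 2 genes was made after the values were seen and is a description, and the ranges of the sets overlap. The place of Sncg depended on ZT0 replicate 4. Without that array the 6 pairs of Sncg with the set had a mean of 0.39, with r of 0.58 with Ddc, 0.54 with Slc6a3 and 0.50 with Th, and the 15 pairs within the set a mean of 0.64 and a lowest r of 0.17 (Slc18a2 with Aldh1a1). The 7 pairs with Slc10a4 had a mean of -0.03.

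Within the set of 6, the transporter and the receptor were close, with r = 0.82 between Slc6a3 and Ret, and r was 0.79 between Ddc and Slc6a3. Ddc was also related to Aldh1a1 (r = 0.77), but this pair leaned on a single array: without ZT0 replicate 4, in which Ddc deviated by -0.32 and Aldh1a1 by -0.44, r was 0.67, and on the values as deposited it was 0.70, and 0.51 without the 2 mice farthest from the median of Ddc. Set against the mean of the 7 others, Th (r = 0.87), Ddc (0.87) and Slc6a3 (0.86) were the most typical genes, followed by Ret (0.77), Slc18a2 (0.62) and Aldh1a1 (0.56). Sncg had 0.15 and Slc10a4 0.07. The value of Sncg rested on ZT0 replicate 4, in which Sncg deviated by 0.17 and the 7 others were below their means, and without that array it was 0.45, while that of Slc10a4 was -0.05.

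**Figure D4:**
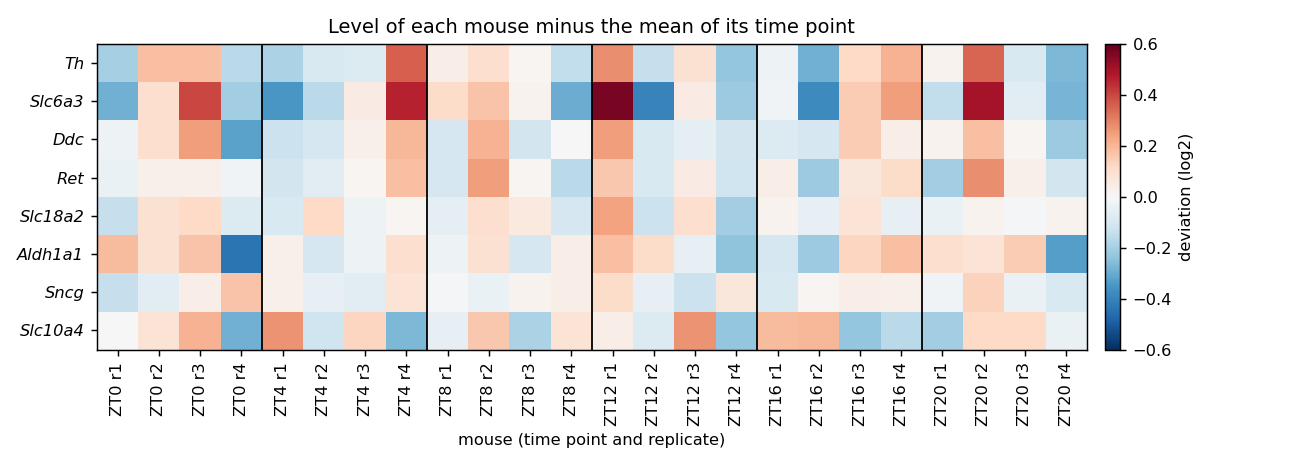
Heat map of the deviation of each gene from the mean of its time point (log2, colour scale from -0.6 to 0.6) in the 24 mice, which are ordered by time point and replicate. The column of ZT12 r1 is red and that of ZT12 r4 blue through the upper 6 rows, the deepest red is the deviation of 0.57 of Slc6a3 in ZT12 r1. The rows of Sncg and Slc10a4 follow in some columns only: in ZT12 r4 Slc10a4 is at -0.23 and Sncg at 0.07.

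The likeness to Th was then set against the whole array. Among 9477 genes with a mean level above the median of transcripts, Slc6a3 ranked 1, Ddc 3 and Ret 4 by r with Th, Slc18a2 51, Aldh1a1 75, Sncg 994 and Slc10a4 6255. The other genes most like Th were Vtn (r = 0.80), the vitronectin gene that pericytes express in brain, C1qc (0.76), a complement gene of microglia, and Thoc5 (0.75), a subunit of an mRNA export complex. They were followed by Acta2 (0.70), Igfbp2 (0.69), Hipk2 (0.69), Serping1 (0.69), Zfp764 (0.69), Map3k11 (0.68) and Cped1 (0.68). The genes least like Th were 1700022A21Rik (-0.76), Gpatch4 (-0.67), Fgf5 (-0.66), Mrps28 (-0.66) and Slc5a7 (-0.65), the choline transporter of cholinergic neurons. None of these 15 genes was called in the slope on Th, with adjusted p values from 0.380 for Vtn upwards.

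The only other transcript that was called with Th besides Slc6a3 was Chrna6, the nicotinic receptor subunit that is concentrated in midbrain dopamine neurons. Its level was 6.63 in ZT4 replicate 4, 7.02 in ZT20 replicate 2 and 6.75 in ZT12 replicate 1, the mice with the highest deviations of Th, against 6.10 in ZT16 replicate 2, 6.19 in ZT20 replicate 4 and 6.33 in ZT12 replicate 4, those with the lowest. The deviations correlated with r = 0.86, and Chrna6 changed by 0.98 log2 units per unit of Th (SE 0.14, 95% interval 0.69 to 1.27, limma, adjusted p = 0.00294). Chrna6 lies below the median level and was for that reason not ranked above.

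The wider list of genes enriched in midbrain dopamine neurons includes Chrna6. Of its 19 measured genes, 1 (Chrna6) was called (0.00854% of all transcripts), 5 were higher with Th at an unadjusted p under 0.05 (2.06% of all transcripts), 0 were lower (1.94%), and 16 had slopes above 0, with a median slope of 0.10. Chrnb3, which assembles with Chrna6, had a slope of 0.57 (SE 0.17), Cpne7 0.37 (SE 0.12), Chrna4 0.37 (SE 0.12) and Drd2, the dopamine autoreceptor, 0.28 (SE 0.11, r = 0.62), all with an adjusted p of 1.0. The mean level of the 19 genes correlated with the deviations of Th at r = 0.79.

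Transcription factors that specify and maintain midbrain dopamine neurons held no called gene. Of 10 measured, 0 were called by limma, 3 were higher at an unadjusted p under 0.05 (2.06% of all transcripts) and 8 had slopes above 0, with a median of 0.16. Otx2, a factor of ventral VTA neurons, had a slope of 0.32 (SE 0.11), Sox6 0.29 (SE 0.11) and Nr4a2, which binds the NBRE and activates Th, 0.27 (SE 0.12). Pitx3 had a slope of 0.15 (SE 0.13) and r = 0.29. Foxa1 was the most negative with -0.19 (SE 0.15).

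Genes for the cofactor and the breakdown of dopamine held no called gene. Tyrosine hydroxylase needs tetrahydrobiopterin, and of 6 genes that make or recycle it, 0 were called with Th and 0 passed at an unadjusted p under 0.05. Among all transcripts 2.06% were higher and 1.94% lower at that threshold, shares at which 6 genes would mostly give none. The mean of the cofactor list had r of 0.43 with Ddc and 0.46 with Aldh1a1. With the other members r ran from -0.10 (Ret) to 0.21 (Slc18a2), with 0.07 for Th. Gch1, the rate-limiting enzyme of that pathway, had a slope of 0.03 (SE 0.21). Of 6 genes for enzymes that degrade or convert dopamine, 0 were called and 1, Dbh, was lower at an unadjusted p under 0.05, and the monoamine oxidases had slopes of -0.04 (SE 0.17) for Maoa and 0.05 (SE 0.14) for Maob. Over the day, 0 genes of either list were called rhythmic, and 1 of each passed at an unadjusted p under 0.05 (8.91% of all transcripts), with Qdpr, which regenerates the cofactor, at a fold of 1.19 (adjusted p = 0.428) and Aldh2 at 1.19 (adjusted p = 0.549). In early light against early dark, the 4 lists of dopamine genes beside the 8 held 0 called genes among 41, and 4 at an unadjusted p under 0.05, a share close to the 10.2% of all transcripts.

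Most markers of noradrenaline and cholinergic neurons had slopes on Th below 0, the exceptions being Phox2a (0.05, SE 0.17) among 3 noradrenaline genes and Isl1 (0.41, SE 0.17) among 5 cholinergic genes. Dbh, which converts dopamine to noradrenaline, had r = -0.66 with Th and a slope of -0.78 (SE 0.19, adjusted p = 0.84), and Slc5a7 a slope of -0.74 (SE 0.19, adjusted p = 0.844). The vesicular acetylcholine transporter Slc18a3 had a slope of -0.41 (SE 0.17) and Chat of -0.22 (SE 0.14), and the serotonin markers Tph2 of -0.26 (SE 0.17) and Slc6a4 of -0.25 (SE 0.17). The other 3 of the 5 serotonin genes, Htr1a, Gata2 and Gata3, had slopes of 0.13, 0.06 and 0.04. Against Slc6a3, r was -0.77 for Dbh and -0.76 for Slc5a7. None of these slopes passed after adjustment.

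The mean level of each marker list was also followed between mice. The mean of the 3 noradrenaline genes lay between 6.21 and 6.37 over the time points and between 6.07 and 6.55 over the mice, and correlated with Th at r = -0.58. The mean of the 5 cholinergic genes lay between 6.75 and 6.84 over the time points and between 6.52 and 6.99 over the mice (r = -0.47). The mean of 10 genes of all neurons had r = -0.01 with Th, but its genes went opposite ways, with Syt1 at 0.67 and Nefm at -0.60. The mean of 5 serotonin genes had r = -0.15, and those of microglia (0.43), myelin (0.37), endothelial cells (0.35) and astrocytes (0.29) had r above 0. The part of these other cells in the relation between Th and Slc6a3 was not tested beyond adding the mean of the myelin list to the fit, with which Slc6a3 had a slope of 1.40 and was still called (adjusted p = 2.34e-05).

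The 8 genes were also set against the means of the marker lists. Aldh1a1 correlated with the mean of the GABA neuron list at r = 0.78 and with that of microglia at 0.66. Ddc had 0.65 and 0.66 with the same lists, and Slc6a3 had 0.28 and 0.42. Slc10a4, although it is shared by cholinergic neurons, had r = -0.34 with the mean of the cholinergic list and -0.02 with Slc5a7, and its highest r with any of the cell type lists was 0.52, with microglia. Sncg had r of at most 0.50, with oligodendrocyte precursors. These correlations rest on the same 24 arrays and are descriptions. They were not repeated without ZT0 replicate 4, in which Aldh1a1 deviated by -0.44, Ddc by -0.32 and Slc10a4 by -0.29. How far they lean on that array is therefore not known.

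**Figure D5:**
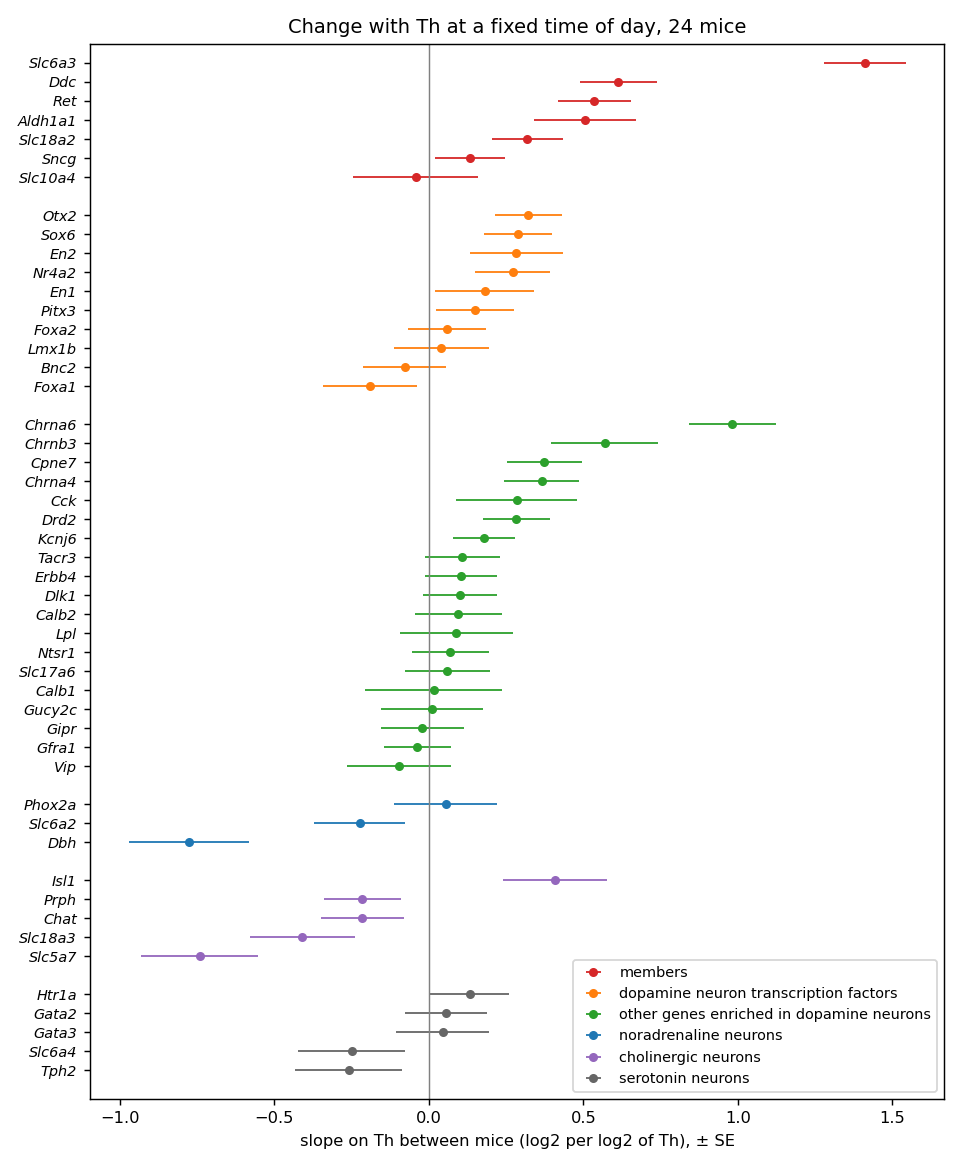
Change of each gene with Th between mice at a fixed time of day (log2 per log2 of Th, horizontal) for the dopamine genes, the lists of dopamine neuron genes, and markers of noradrenaline, cholinergic and serotonin neurons; points are limma estimates from 24 mice and lines ± SE. Slc6a3 (1.41) and Chrna6 (0.98) are the only genes called, and Dbh (-0.78) and Slc5a7 (-0.74) lie farthest on the other side of 0.

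Finally, the daily course was fitted again with the Slc6a3 level of each mouse as a covariate, which compares mice at an equal level of the dopamine neuron transporter. The peak-to-trough fold of Th was 1.03 (adjusted p = 0.958), and the SE of its log2 range fell to 0.06, against 0.11 without the covariate. Ddc had a fold of 1.09 (adjusted p = 0.729), Slc18a2 of 1.07, Slc10a4 of 1.11 and Ret of 1.02. Aldh1a1 had the largest fold, 1.15, with a peak at ZT8.70 (adjusted p = 0.655), and Sncg a fold of 1.09 (adjusted p = 0.682). At an adjusted p under 0.05, 0 of the 7 genes were called, against 0.0299% of all transcripts (7 of 23409), and 0 passed at an unadjusted p under 0.05, against 8.37%.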

How the data were processed

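The authors deposited log2 values that they made with RMA in R 2.13.1 from Affymetrix Mouse Gene 1.0 ST arrays, 1 array per mouse. RMA sets all arrays to 1 distribution, so values show differences relative to other transcripts. The time points, on which every fitted peak rests, follow the labels, which lie 4 h apart, whereas the study's methods state a 6-h interval. Of 35556 probe sets, 23410 carry a gene name in the array annotation, and these were tested as transcripts. Every column matched a mouse (0 unmapped columns).

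Log2 values were fitted with limma 3.58.1 (R 4.3.3), with Benjamini-Hochberg adjustment over all transcripts and a threshold of 0.05. Rhythms used the cosine and sine of a 24-h period in place of CircWave, early light and early dark a fit with 6 time points as groups, and slopes a fit on time point and the Th level of each mouse. The fits were tested on simulated data. Named were the 8 genes, the 10 most and 5 least like Th, and up to 4 genes of each list by smallest p. Pitx3, Foxa1, Drd2, Gch1, Chat and Gata3 were added with their values known. The 8 genes, the lists and the tests were chosen with earlier results of these data known. Alternatives were other tests, curves, normalizations, filters, weights, covariates and anchor genes, the replicate number as a block, and leaving out each array. Promoter sequences are those of RefSeq for GRCm38.p6.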

Additional observations from a re-analysis of the deposited data

Results flagged for a closer look

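Of 48 groups of 4 mice (8 genes at 6 time points), 3 held a mouse that stood far from the other 3 by Dixon's test at the 95% level, which flags about 1 in 20 groups by chance. Ddc at ZT12 was 8.68 in replicate 1, above the 8.32 to 8.38 of the other mice. Aldh1a1 at ZT0 was 9.26 in replicate 4, the array that stands apart, below the 9.78 to 9.88 of the others. Aldh1a1 at ZT20 was 9.37 in replicate 4, below the 9.79 to 9.85 of the others.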

How the results depend on the processing

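Over the alternatives that kept all arrays or left out ZT0 replicate 4 as planned, the counts of dopamine genes called were 0 for the rhythm, 0 for early light against early dark, and 0 for the rhythm at an equal Slc6a3 level, and the mean r of the 28 pairs was 0.32 to 0.42. The number called with Th was 1 in all but 1 setting: with the mean of the 7 other members in place of Th it was 2, with Ddc at a slope of 1.13 (limma, adjusted p = 0.0239) and Slc6a3 at 2.56, slopes per unit of that mean. Differences that changed sign were small and not called. In late light (ZT4 and ZT8) against late dark (ZT16 and ZT20), Ddc was at 0.057, Aldh1a1 at 0.11 and Slc10a4 at 0.031 (adjusted p = 0.904, 0.796 and 0.960), and the slope of Slc10a4 was 0.0032 on Slc6a3 and 0.090 on the mean of the 7 others. The cause was not tested. Leaving out each array in turn, the difference of early light and early dark ran from -0.082 to 0.024 for Th, -0.068 to 0.027 for Ddc, -0.13 to 0.040 for Slc6a3 and -0.085 to 0.028 for Aldh1a1, the slope of Slc10a4 from -0.14 to 0.14 and that of Slc6a3 from 1.32 to 1.46, with 1 gene called with Th throughout and 0 in each other comparison, and the mean r from 0.33 to 0.42. Same-numbered mice of different time points deviated together little on average (mean r = 0.03 over 60 pairs, 14 of them above 0.1). Pairs with different numbers had a mean r of -0.01 over 180 pairs, 39 of them above 0.1. The highest r was 0.58 among same-numbered pairs and 0.33 among the others. With the replicate number as a block, the slope of Slc6a3 was 1.41 (limma, adjusted p = 1.16e-05), and no call changed. The mean of all probe sets of a gene gave no separate value, since each gene had 1. With 4 mice per time point, small differences are not detectable.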
